A study of Mus musculus with 15 samples.

Results

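The comparison set 3 cell lines transformed with neuT against 3 cell lines transformed with v-src, which is 6 of the 15 arrays of the series. The arrays were chosen by their titles alone, and all 19938 genes with a probe set of their own were tested between them. Both sets of lines came from epithelial cells of the ventral prostate of FVB mice, taken into primary culture and transduced with the oncogene. Both were grown in DMEM with 10% fetal bovine serum without further treatment and collected shortly before confluence, so medium and harvest were the same on both sides. The other 9 arrays held 3 lines transformed with Myc, 3 transformed with Ras and 3 cultures of prostate epithelium without a transduced gene. They entered the fit for the estimate of the spread, and their levels are given beside some genes. The design text gives 3 lines to each oncogene, and no label says whether these came from separate transductions or animals. The p-values therefore measure the spread among these lines, and a difference between the oncogenes cannot be told apart from a trait that the lines of a group share for another reason. The labels name no batch.

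NeuT is Erbb2 (Neu, HER2), a receptor tyrosine kinase, in a constitutively active version. Erbb2 pairs with other receptors of the EGF receptor family, above all Erbb3, and signals through the Ras to ERK cascade and through PI3-kinase. The v-src product is a constitutively active form of Src, a kinase at the inner face of the cell membrane that phosphorylates proteins of focal adhesions and cell junctions. The prostate epithelium holds basal cells, which carry keratins 5 and 14 and the transcription factor p63, and luminal cells, which carry keratins 8 and 18 and make the secretions of the gland.

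Values are log2 expression, so that a difference of 1 is a 2-fold change, and each difference is NeuT minus Src with its standard error. Any pair of NeuT arrays had r of 0.995 or 0.996 over the 19938 genes, and 6 to 26 genes differed in it by 2-fold or more. Pairs of Src arrays had r between 0.994 and 0.996, and 3 to 10 genes so far apart. A NeuT array set against a Src array gave r between 0.965 and 0.968 and 744 to 829 genes that far apart. Genes are not independent replicates, so these values describe the arrays only. Background was not measured, and a level below 6.47 (the median over all genes and arrays) could be close to it, which makes fold sizes with such a level on either side unsure. Control replicate 3 stood apart from the other controls and held kidney transcripts, with Umod at 11.03 in it and at 5.70 in both other controls. It has no part in the contrast, and the fit without it called 718 genes in place of 709.

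The labelled epithelial origin was read from markers. Among luminal and junction markers, Krt8 averaged 12.86 ± 0.04 in NeuT lines and 11.42 ± 0.02 in Src lines (SD, n = 3 each), and Epcam, an epithelial adhesion molecule, averaged 9.38 ± 0.04 and 9.11 ± 0.07. The secretory products of the mature gland were low on both sides, with Pbsn (probasin) at 3.10 in NeuT lines and 3.22 in Src lines, and Msmb at 4.77 and 4.78. None of the 15 fibroblast, 12 endothelial or 12 kidney tubule markers passed the test, and 11 of each list lay below 6.47 in both groups. The error took in the spread of all 5 groups, so kidney genes that were high in control replicate 3 could hardly pass. Cubn, of the kidney list, was at 6.27, 6.21 and 6.37 in NeuT lines, against 5.52, 5.61 and 5.70 in Src lines. With an SD of 2.27 in controls, its difference was 0.67 ± 0.71. Ptprc, the pan-leukocyte marker CD45, was at 4.84 in NeuT lines and 4.80 in Src lines. Y-linked genes and Xist had 4 measured members, all below 6.47 in NeuT and Src lines, and none passed. The Y-linked Eif2s3y averaged 3.37 in NeuT lines, 3.62 in Src lines and 3.47 in Ras lines, against 8.53 in controls and 6.96 in Myc lines. Kdm5d was at 4.64, 4.54 and 4.72 in NeuT, Src and Ras lines, against 7.32 in controls and 6.02 in Myc lines. The reason was not tested.

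Erbb2, the gene from which neuT derives, was higher in the NeuT arrays. It was at 9.13, 9.88 and 9.50 in the 3 NeuT lines, against 7.89, 7.96 and 7.90 in the 3 Src lines. The groups do not overlap, and the NeuT lines differed more among themselves than the Src lines did. The difference was 1.59 ± 0.13 (adjusted p = 1.16e-06). Src was at 7.18 ± 0.11 in NeuT lines and 7.08 ± 0.02 in Src lines (SD, n = 3 each), a difference of 0.10 ± 0.09 (adjusted p = 0.547), so the array did not show which lines carry v-src. Whether the probe sets of Erbb2, Src and Myc read the transduced copies was not tested. Src averaged 7.04 in controls, and Myc was lowest in the Myc lines, at 8.78, against 9.70 in controls. Myc averaged 10.97 in NeuT lines and 10.47 in Src lines, a difference of 0.49 ± 0.19 that did not pass (adjusted p = 0.093). It passed in 4 of 18 alternative fits, among them the fit of the 6 NeuT and Src arrays (adjusted p = 0.00416) and the one without control replicate 3 (adjusted p = 0.0472). Hras had no probe set of its own.

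Of the 19938 genes, 394 were called higher in NeuT lines (1.98%) and 315 lower (1.58%), where a call needed a change of 2-fold or more besides an adjusted p under 0.05. Without a fold minimum 2433 genes were higher (12.2%) and 1586 lower (7.95%). At 4-fold the lower side held more genes than the higher side, with 82 higher and 102 lower, and at 16-fold there were 9 higher and 16 lower. In each of the 709 called genes the 3 NeuT values lay wholly to 1 side of the 3 Src values, as they did in 8414 of all 19938 genes. A call makes such a separation likely, so it adds no support to the calls. Of the genes called higher, 133 had a Src mean below 6.47, and of those called lower, 189 had a NeuT mean below it. Members of a gene list are counted below as higher or lower by the adjusted p alone, against the 12.2% and 7.95% above. The median difference of all genes was -0.03, beside which the list medians can be read. Both measures take in genes dim in both groups, yet the fit without these still called 380 genes higher and 289 lower. Among the 10548 placed genes with a NeuT or Src mean of at least 6.47 the median difference was 0.05. Some lists, such as those of mitosis, DNA replication and ribosome biogenesis, held no such dim gene. List counts were not compared with genes of like level.

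**Figure D1:**
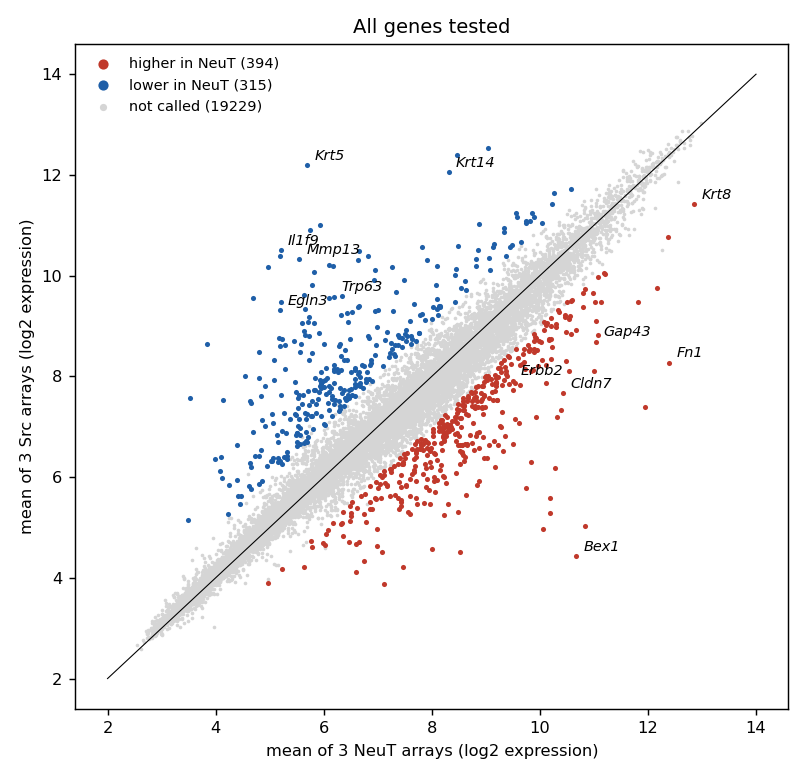
Mean log2 expression of every gene over the 3 NeuT arrays (horizontal axis) and the 3 Src arrays (vertical axis), with genes called higher in NeuT in red and lower in blue. The 394 higher and 315 lower genes leave the diagonal on both sides, with Krt5 and Bex1 farthest from it.

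The gene with the widest difference was Krt5, the keratin that defines basal cells. It was at 5.66, 5.65 and 5.78 in NeuT lines, against 12.19, 12.13 and 12.25 in Src lines. All NeuT values lay below the median level of the arrays and all Src values far above it, a 90.0-fold lower level in NeuT (-6.49 ± 0.14, adjusted p = 4.23e-12). Next among the genes lower in NeuT lines came Il1f9, now named Il36g, a cytokine of the interleukin 1 family made by keratinocytes. It was at 5.14, 5.25 and 5.24 in NeuT lines, against 10.44, 10.74 and 10.34 in Src lines (-5.30 ± 0.40, adjusted p = 4.42e-07). Pdpn, the mucin-type membrane protein podoplanin, was at 5.73, 6.12 and 5.38 in NeuT lines, against 10.89, 10.89 and 10.95 in Src lines (-5.17 ± 0.16, adjusted p = 7.53e-11). Arhgdib and Tmem45a, a transmembrane protein, differed by -5.21 each. The other genes with the widest lower levels were Krt6a (-5.08), the desmosomal cadherin Dsg3 (-4.86), the protease inhibitor Serpinb10 (-4.80), the collagenase Mmp13 (-4.77), the alarmin Il33 (-4.26), the calcium-binding protein S100a9 (-4.25) and Egln3 (-4.12), a prolyl hydroxylase of the hypoxia response. In all 12 of these genes the NeuT mean was below 6.47.

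On the higher side Bex1, a small adaptor protein encoded on the X chromosome, was at 10.47, 10.84 and 10.69 in NeuT lines, against 5.01, 4.32 and 3.96 in Src lines. The difference was 6.24 ± 0.22 (adjusted p = 2.45e-10), 75.5-fold. Mme, the membrane peptidase neprilysin (CD10), was at 10.95, 10.90 and 10.65 in NeuT lines, against 5.30, 4.79 and 5.02 in Src lines. Its difference of 5.80 had a standard error of 0.79, larger than that of Bex1, since the error is taken from the spread in all 5 groups (adjusted p = 0.000119). The SD of Mme was 2.50 in controls and between 0.11 and 0.25 in the other groups. Fn1, the matrix protein fibronectin, was at 12.32, 12.48 and 12.37 in NeuT lines, against 8.38, 8.52 and 7.93 in Src lines (4.11 ± 0.29, adjusted p = 2.15e-07). Both sides of Fn1 lay above the median level. The rest of the 12 highest were Fam111a (5.09), a protease tied to DNA replication, the glutamine transporter Slc38a1 (4.89), Pate14 (4.59) of a family of secreted proteins of the male reproductive tract, Ddah1 (4.55), which degrades methylated arginine, the nucleobase transporter Slc43a3 (4.11), the zinc finger protein Zbtb10 (4.01), the G-protein regulator Rgs2 (3.96), Armcx3 (3.53) and the beta-defensin Defb41 (3.27). The 3 NeuT values of Defb41 were 8.18, 7.34 and 6.89, the widest spread among the NeuT values of these 24 genes.

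**Figure D2:**
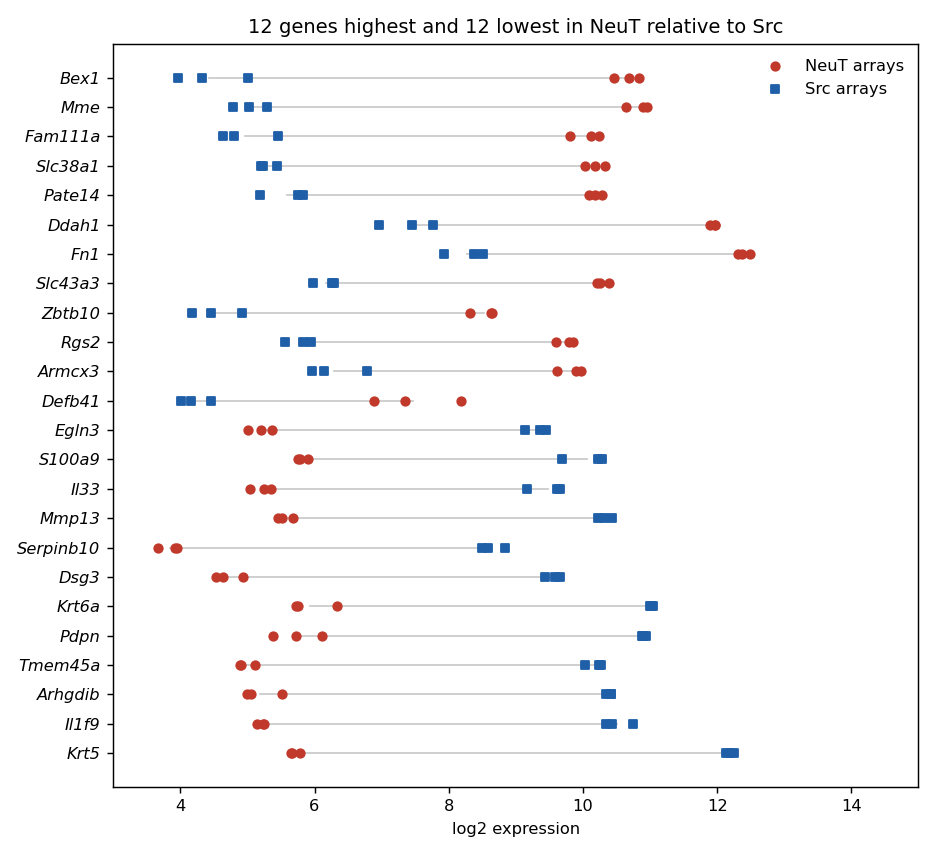
Log2 expression of the 12 genes with the widest higher and the 12 with the widest lower level in NeuT, one row a gene, with 3 NeuT arrays as red circles, 3 Src arrays as blue squares and a grey line between the group means. Genes were taken only where the groups do not overlap, and the gap is widest for Krt5 (-6.49) and Bex1 (6.24).

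Some of these genes stood apart in the Src lines and others in the NeuT lines. Slc38a1 was at 10.18 in NeuT lines and 5.29 in Src lines, and at 9.93, 10.23 and 9.30 in the Myc, Ras and control groups, so that the Src level was the one apart. Fam111a (9.98 to 11.40 in Myc and Ras lines, 8.65 in controls) and Zbtb10 (8.31 to 9.28 over those 3 groups) were likewise lowest in Src lines. Rgs2 and Defb41 were instead highest in NeuT lines, with Rgs2 at 9.74 there, 5.78 in Src lines, 6.67 in Myc lines and controls, and 7.50 in Ras lines. Bex1 was high in NeuT lines and controls (10.93) and low in Src, Myc (4.11) and Ras lines (3.80). Over the 394 genes called higher, the Myc, Ras and control means were all nearer NeuT for 50 genes and all nearer Src for 112, with the rest mixed. Over the 315 called lower, all 3 were nearer NeuT for 76 and nearer Src for 27. A group with a dim level of a gene falls nearer the lower side, and these counts were not taken over all genes. They describe the called genes only.

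**Figure D3:**
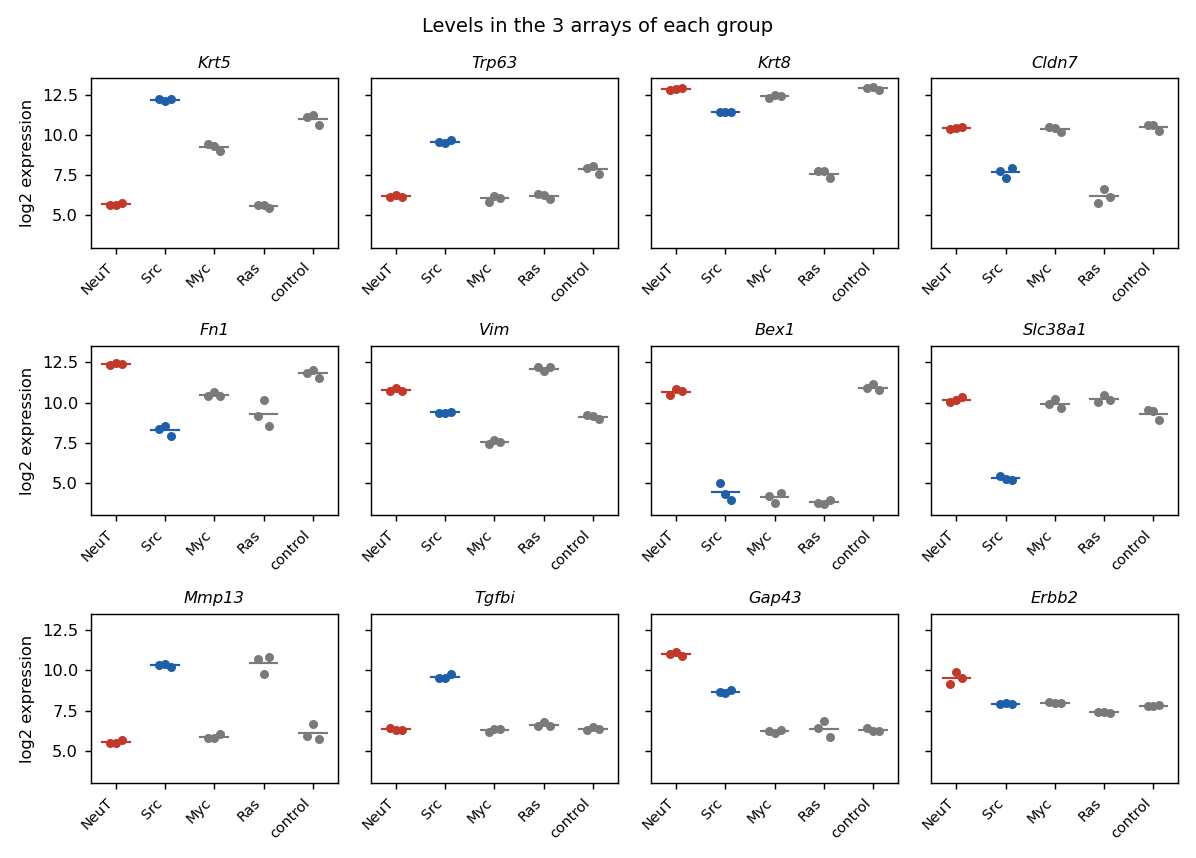
Log2 expression of 12 genes in the 3 arrays of each group, NeuT in red, Src in blue and the Myc, Ras and control groups in grey, with a bar at each group mean. Slc38a1 is low in Src alone, Tgfbi (9.60) is high in Src alone, Erbb2 is high in NeuT alone and Bex1 is high in NeuT and control.

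Promoters are shown for the 3 genes with the widest higher and the 3 with the widest lower levels among those for which RefSeq gives a single promoter (13 of the 24 genes, and 17 with at least 1). Each runs 250 bases before to 50 after the gene's start on build GRCm38.p6, 5′ to 3′ on the gene's own strand, with CG dinucleotides in capitals. Bex1 lies at chrX:136215464-136215763 on the minus strand, Pate14 at chr9:36638553-36638852 on the minus strand and Ddah1 at chr3:145758442-145758741 on the plus strand. Krt5 lies at chr15:101712856-101713155 on the minus strand, Il1f9 at chr2:24186226-24186525 on the plus strand and Tmem45a at chr16:56886114-56886413 on the minus strand.
Bex1: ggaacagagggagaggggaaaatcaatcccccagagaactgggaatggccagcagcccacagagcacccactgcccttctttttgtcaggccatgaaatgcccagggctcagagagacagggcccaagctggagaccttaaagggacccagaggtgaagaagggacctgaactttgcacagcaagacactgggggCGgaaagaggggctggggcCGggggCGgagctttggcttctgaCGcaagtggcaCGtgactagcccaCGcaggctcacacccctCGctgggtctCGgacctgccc
Pate14: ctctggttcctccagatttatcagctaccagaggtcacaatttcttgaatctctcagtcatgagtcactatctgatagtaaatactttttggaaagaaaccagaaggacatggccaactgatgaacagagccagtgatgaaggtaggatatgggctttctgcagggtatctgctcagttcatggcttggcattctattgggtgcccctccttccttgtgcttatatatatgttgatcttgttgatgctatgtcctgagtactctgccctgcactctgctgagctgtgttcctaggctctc
Ddah1: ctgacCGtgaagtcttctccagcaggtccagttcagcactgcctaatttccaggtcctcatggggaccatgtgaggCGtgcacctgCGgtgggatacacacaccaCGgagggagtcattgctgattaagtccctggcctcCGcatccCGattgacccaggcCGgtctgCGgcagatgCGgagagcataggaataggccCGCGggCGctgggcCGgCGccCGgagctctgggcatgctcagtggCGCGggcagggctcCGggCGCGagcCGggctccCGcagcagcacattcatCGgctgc
Krt5: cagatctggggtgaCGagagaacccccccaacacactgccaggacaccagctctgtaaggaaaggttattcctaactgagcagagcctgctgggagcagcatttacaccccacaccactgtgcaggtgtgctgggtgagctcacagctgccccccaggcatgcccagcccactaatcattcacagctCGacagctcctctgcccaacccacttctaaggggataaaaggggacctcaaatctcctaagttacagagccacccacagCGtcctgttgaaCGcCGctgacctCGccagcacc
Il1f9: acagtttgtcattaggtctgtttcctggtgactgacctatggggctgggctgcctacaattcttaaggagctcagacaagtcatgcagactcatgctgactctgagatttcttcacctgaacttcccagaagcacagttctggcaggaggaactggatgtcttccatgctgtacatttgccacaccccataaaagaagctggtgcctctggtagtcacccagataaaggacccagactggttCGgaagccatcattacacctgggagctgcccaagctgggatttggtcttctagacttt
Tmem45a: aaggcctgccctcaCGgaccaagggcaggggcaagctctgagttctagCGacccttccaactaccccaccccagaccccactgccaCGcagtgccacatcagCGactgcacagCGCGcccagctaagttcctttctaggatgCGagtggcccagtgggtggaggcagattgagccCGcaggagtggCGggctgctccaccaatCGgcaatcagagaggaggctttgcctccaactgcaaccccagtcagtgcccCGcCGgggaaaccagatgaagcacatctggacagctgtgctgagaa

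Bex1 held 8 CG, Pate14 none and Ddah1 23, while Krt5 held 6, Il1f9 1 and Tmem45a 12, so the 6 promoters do not sort by direction. Over larger numbers the CG content did differ in level. The median was 19 CG in the 233 higher genes with a single promoter and 10.5 in the 202 lower ones, beside 15 in all 12977 such genes. The letters TGANTCA, a core motif of AP-1 sites that reads the same on both strands, were in 5.58% of the promoters of higher genes and in 15.8% of those of lower genes, beside 6.95% of all. Of the 6 printed promoters only Pate14 has it, 190 bases before the start. A match is not a measured binding site.

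Basal epithelial markers were mostly lower in NeuT lines. Of 18 measured, 10 were lower and 2 higher, with 7 and 1 past 2-fold, and the list median was -0.56. Trp63, which encodes the p63 factor that maintains basal cells, was at 6.16, 6.25 and 6.16 in NeuT lines, against 9.58, 9.51 and 9.66 in Src lines (-3.39 ± 0.12, adjusted p = 3.39e-10). Krt14, the partner of Krt5 in basal filaments, was at 8.19, 8.29 and 8.46 in NeuT lines, against 12.05, 12.00 and 12.11 in Src lines (-3.74 ± 0.15). Krt17 differed by -3.44, Krt15 by -1.79 and Col17a1, a collagen of hemidesmosomes, by -1.55. The 2 exceptions were Dst, a linker of hemidesmosomes (1.42), and the integrin Itga3 (0.73). In these bulk samples, fewer cells of a type and less RNA per cell cannot be told apart. Set beside the other groups, Krt5 was at 10.96 in controls and 9.23 in Myc lines, between NeuT and Src, and at 5.59 in Ras lines. Trp63 was at 6.19 in NeuT lines and 9.58 in Src lines, at 6.05 in Myc lines and 7.85 in controls, and Ras lines were within 0.01 of NeuT lines.

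Among genes of desmosomes and of the cornified envelope of stratified epithelium 9 of 20 were lower and 2 higher, and 9 did not pass, with a median of -0.49. Dsg3 was at 4.93, 4.63 and 4.53 in NeuT lines, against 9.58, 9.43 and 9.65 in Src lines (-4.86 ± 0.18, adjusted p = 3.67e-10), and its fellow cadherin Dsc3 differed by -2.78. The envelope precursor Sprr1b (-3.17) and the stress keratin Krt16 (-3.38) were lower too. Pkp2, a desmosomal plaque protein, went the other way, averaging 8.53 ± 0.08 in NeuT lines and 6.99 ± 0.06 in Src lines (SD, n = 3 each), a difference of 1.55 ± 0.11, as did Sprr1a, at 11.07 in NeuT lines and 9.97 in Src lines. Neighbouring genes were called together in several gene family clusters. In the gene order of GRCm38.p6, Krt14, Krt16 and Krt17 formed 1 run of lower genes, Sprr2d, Sprr2e and Sprr2f another (by 2.20 to 3.99 on the log2 scale), and S100a3, S100a2 and S100a4 one more. Members of such families can share probe sequence, which was not tested.

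Luminal markers did not move together, with 4 of 17 higher, 2 lower and a median of -0.01. Krt8 was at 12.81, 12.87 and 12.88 in NeuT lines, against 11.42, 11.41 and 11.44 in Src lines (1.43 ± 0.10, adjusted p = 2.42e-07), and Prom1, the membrane glycoprotein CD133, differed by 1.76. Psca, prostate stem cell antigen, was lower, at 5.70, 5.67 and 5.59 in NeuT lines, against 9.33, 9.12 and 9.59 in Src lines (-3.69 ± 0.17). Krt18, the partner of Krt8, was at 12.16, 12.33 and 12.27 in NeuT lines, against 10.55, 10.42 and 10.55 in Src lines. These groups do not overlap, but the difference of 1.75 ± 0.68 did not pass (adjusted p = 0.090), with Krt18 values between 5.80 and 9.83 in the 3 Ras lines, whose spread enters its error. The list had 7 higher members when only the NeuT and Src arrays were fitted, and 2 without NeuT replicate 2 or 3 or without Src replicate 1 or 2.

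Adherens and tight junction genes were more often higher than lower in NeuT lines, with 10 of 20 higher, 1 lower and a median of 0.32. Cldn6, a claudin of early epithelia, was at 10.26, 10.50 and 10.40 in NeuT lines, against 7.45, 7.62 and 6.91 in Src lines (3.06 ± 0.17, adjusted p = 1.37e-08). Cldn7, a claudin of lateral membranes, was at 10.34, 10.44 and 10.50 in NeuT lines, against 7.78, 7.29 and 7.93 in Src lines (2.76 ± 0.20). Cldn7 was at 10.36 in Myc lines and 10.49 in controls, near the NeuT level, and at 6.19 in Ras lines, below the Src level. The polarity protein Pard6b (1.21) and the tricellular junction protein Marveld2 (1.18) were higher past 2-fold. Cdh1, encoding E-cadherin, was at 10.34, 10.51 and 10.50 in NeuT lines, against 9.99, 9.83 and 9.99 in Src lines, a smaller difference of 0.51 ± 0.13 (adjusted p = 0.0131). Ctnnd1, encoding p120-catenin, was lower (-0.60). Without NeuT replicate 3, and without Src replicate 2, 6 members were higher in place of 10. Of 17 epithelial transcription and splicing regulators 4 were higher and 3 lower (median 0.06), with the RNA-binding protein Rbm47 at 1.16 and the transcription factor Ehf at -0.65.

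Genes known from epithelial to mesenchymal transition went both ways in the same lines, with 7 of 22 higher, 4 lower and a median of 0.01. Vim, encoding the intermediate filament vimentin, was at 10.72, 10.91 and 10.74 in NeuT lines, against 9.35, 9.38 and 9.42 in Src lines (1.40 ± 0.09, adjusted p = 1.33e-07). Cdh2, encoding N-cadherin, was at 8.13, 8.05 and 7.95 in NeuT lines, against 5.92, 5.86 and 6.01 in Src lines (2.11 ± 0.10, adjusted p = 4.86e-09). Both were thus higher in the lines that also had more Cdh1. Snai2, the transcriptional repressor Slug, was at 7.40, 7.22 and 7.16 in NeuT lines, against 10.21, 10.06 and 10.27 in Src lines (-2.92 ± 0.13, adjusted p = 2.73e-09). S100a4 (-1.69) and the matrix protein Sparc (-1.34) were lower as well. Vim and Cdh2 were higher still in Ras lines, at 12.11 and 9.91.

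**Figure D4:**
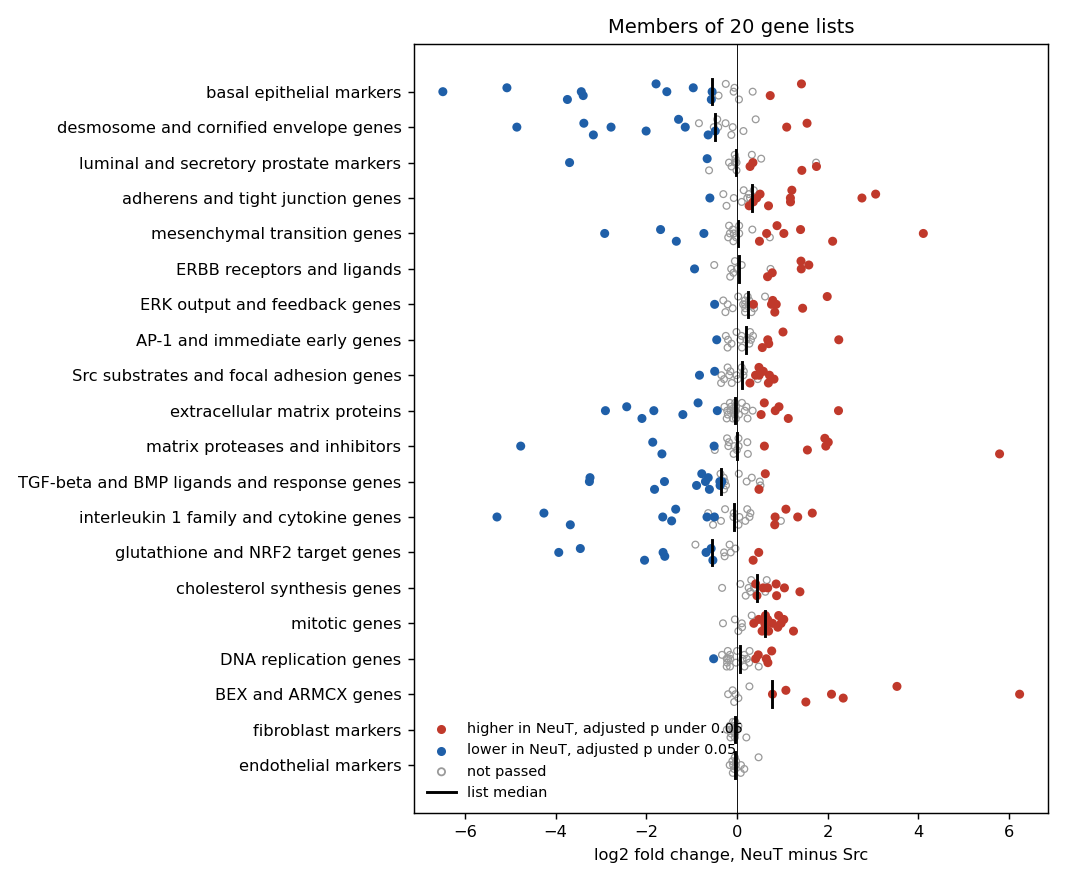
Log2 fold change of each measured member of 20 gene lists, NeuT minus Src, with members higher at an adjusted p under 0.05 in red, lower in blue, others as open grey circles and list medians as black bars. Basal and desmosome members lie to the left (medians -0.56 and -0.49), mitotic and BEX and ARMCX members to the right (0.62 and 0.78), and fibroblast and endothelial markers near 0.

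Among receptors and ligands of the ERBB family, to which the transduced gene belongs, 5 of 14 were higher and 1 lower (median 0.05). Erbb3, the ligand-binding partner of Erbb2, was at 8.21, 8.42 and 8.35 in NeuT lines, against 6.88, 6.81 and 7.04 in Src lines (1.41 ± 0.17, adjusted p = 4.94e-05). Errfi1, a feedback inhibitor of these receptors, was at 9.84, 9.98 and 9.87 in NeuT lines, against 8.53, 8.31 and 8.59 in Src lines (1.42 ± 0.14). The ligands Hbegf (0.68) and Ereg (0.78) were higher, and Nrg1, the neuregulin that binds Erbb3, was lower (-0.94). Erbb3 was at 7.69 in Myc lines and 7.81 in controls, between the NeuT and Src levels, and at 5.90 in Ras lines, below both. Errfi1 averaged 9.49 in controls, 9.45 in Ras lines and 8.61 in Myc lines.

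Targets and feedback regulators of the ERK cascade had 7 of 24 members higher, 1 lower and a median of 0.25. Dusp1, a phosphatase of MAP kinases, was at 8.83, 8.68 and 8.93 in NeuT lines, against 6.92, 6.67 and 6.87 in Src lines (1.99 ± 0.10, adjusted p = 5.11e-09). Lif, a cytokine of the interleukin 6 family, differed by 1.45, Ccnd1, the cyclin of G1 phase, by 0.84 and the membrane protein Emp1 by 0.79. Spred1, an inhibitor of the cascade, was lower (-0.49). The count was 13 when only the NeuT and Src arrays were fitted and 11 without control replicate 3. Of 19 AP-1 and immediate early genes 5 were higher (8 with array weights) and 1 lower (median 0.21). Ccn1, a matricellular target of serum and YAP signalling, was at 11.04, 11.17 and 11.02 in NeuT lines, against 8.78, 8.84 and 8.87 in Src lines (2.25 ± 0.16, adjusted p = 2.15e-07), and the AP-1 subunit Jun differed by 1.02. Fosl1, another AP-1 subunit, counted in the ERK list, differed by 0.76. Beside the other groups, Dusp1 averaged 8.64 in controls, 7.29 in Ras lines and 6.68 in Myc lines. Jun averaged 8.24 in NeuT lines, 8.71 in controls and 8.16 in Ras lines. Ccn1 averaged 10.53 in controls and 10.05 in Myc lines. Lif, Ccnd1 and Emp1 were highest in NeuT lines, at 10.20, 11.65 and 9.82, against 8.52, 10.23 and 7.94 in controls.

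On the Src side of the signalling, 2 of 14 Src family kinases and regulators were higher and 2 lower (median -0.05). Fyn, a Src family kinase, was at 8.09, 7.77 and 7.98 in NeuT lines, against 5.82, 5.59 and 5.82 in Src lines (2.21 ± 0.13, adjusted p = 4.53e-08). Cblb, a ubiquitin ligase that removes activated kinases, was at 7.96, 8.16 and 8.24 in NeuT lines, against 9.15, 9.24 and 9.26 in Src lines (-1.10 ± 0.11). Csk, the kinase that holds Src inactive, differed by 0.46 and the phosphatase Ptpn1 by -0.50, and both calls depended on single arrays. Csk did not pass without NeuT replicate 3 or Src replicate 2 (adjusted p up to 0.069), nor Ptpn1 without NeuT replicate 2 or 3 or Src replicate 3 (adjusted p up to 0.055). Substrates of Src and focal adhesion genes had 8 of 23 higher and 2 lower, none past 2-fold (median 0.10), among them talin Tln1 (0.82), Pdlim7 (0.72) and cortactin Cttn (0.69) higher and caveolin Cav2 (-0.83) lower. These are RNA levels, and phosphorylation was not measured. Integrins had 1 of 17 higher, the fibronectin receptor subunit Itga5 (0.65), and 2 lower, Itga8 (-0.91) and Itgb5 (-0.86).

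Matrix proteins other than fibronectin went both ways, with 7 of 34 lower, 6 higher and a median of -0.05. Vcan, the proteoglycan versican, was at 4.70, 5.16 and 4.86 in NeuT lines, against 7.72, 7.94 and 7.76 in Src lines (-2.90 ± 0.21, adjusted p = 2.36e-07). Col8a1 (-2.43), Ecm1 (-2.10) and Col12a1 (-1.83) were lower, and the laminin chain Lamb1 (0.93) and the collagen-processing enhancer Pcolce2 (2.24) were higher. Matrix proteases and their inhibitors went both ways, with 6 of 21 higher, 4 lower and a median of 0.00, and Mme, described above, was the member with the widest difference. Mmp13 was at 5.51, 5.46 and 5.68 in NeuT lines, against 10.31, 10.43 and 10.23 in Src lines (-4.77 ± 0.25, adjusted p = 9.53e-09). The stromelysins Mmp3 (-1.86) and Mmp10 (-1.66) were lower with it. Adamts1 (1.96) and Adamts5 (2.02), which cleave proteoglycans, and the inhibitor Timp1 (1.56) were higher. Mmp13 was also high in Ras lines (10.45) and low in Myc lines (5.88) and controls (6.10).

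Ligands and response genes of TGF-beta and BMP were more often lower than higher in NeuT lines, with 12 of 24 lower, 2 higher, 10 that did not pass and a median of -0.35. Tgfbi, a secreted adhesion protein induced by TGF-beta, was at 6.44, 6.28 and 6.31 in NeuT lines, against 9.51, 9.50 and 9.80 in Src lines (-3.26 ± 0.10, adjusted p = 7.53e-11). Id2, an inhibitor of helix-loop-helix factors, was at 5.90, 5.86 and 5.67 in NeuT lines, against 9.25, 8.81 and 9.11 in Src lines (-3.24 ± 0.36). The ligands Tgfb2 (-1.82) and Bmp2 (-0.89) and follistatin, Fst (-1.60), an extracellular inhibitor of activin, were lower. The receptor Tgfbr2 (0.49) and Pmepa1 (0.63) were higher. Of 26 Wnt and Notch genes 7 were lower and 3 higher (median -0.16). Wnt7a (1.22) and Wnt7b (0.82) were higher, and Wnt5a (-1.04) and the Notch ligands Jag1 (-1.22) and Dll1 (-0.55) were lower. Without Src replicate 1, 4 of these were lower in place of 7.

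Cytokines of the interleukin 1 family and chemokines went both ways, with 8 of 26 lower, 5 higher and a median of -0.07. Il33 was at 5.36, 5.04 and 5.25 in NeuT lines, against 9.62, 9.16 and 9.66 in Src lines (-4.26 ± 0.22, adjusted p = 9.45e-09). Ccl2, which attracts monocytes, was at 6.85, 6.34 and 6.72 in NeuT lines, against 10.47, 10.36 and 10.12 in Src lines (-3.68 ± 0.15, adjusted p = 7.56e-10), and Tnf differed by -1.35. The colony-stimulating factors Csf1 (1.34), Csf2 (1.08) and Csf3 (0.84) and the neutrophil chemokine Cxcl2 (1.66) were higher. Of 21 genes of the interleukin 6 family and STAT3 targets 5 were lower and 1 higher (median -0.10), with the receptor Osmr at -1.24, Lcn2 at -0.96 and Lif as the higher one, and 3 were lower without NeuT replicate 2 or Src replicate 1. Of 21 interferon response genes 1 was higher (8 when only the NeuT and Src arrays were fitted) and 2 lower (median 0.16). Of 11 MHC class I presentation genes 4 were lower (median -0.22), led by the peptide trimmer Erap1 (-1.42), and this count was 2 without NeuT replicate 1 or 3 or without Src replicate 1 or 2.

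Metabolic lists differed from each other. Glutathione and NRF2 target genes had 8 of 16 lower, 2 higher and a median of -0.55. Gsta4, a glutathione transferase for lipid aldehydes, was at 7.88, 9.15 and 8.35 in NeuT lines, against 12.46, 12.26 and 12.45 in Src lines (-3.93 ± 0.24, adjusted p = 4.95e-08). Its NeuT values spread over more than a 2-fold range and still lay below all Src values. Gpx2, a glutathione peroxidase of epithelia, differed by -3.46 and Aldh3a1, an aldehyde dehydrogenase, by -2.04. Cholesterol synthesis genes had 8 of 17 higher (13 when only the NeuT and Src arrays were fitted), none lower and a median of 0.44. Insig1, a sterol-responsive regulator of the pathway, was at 9.15, 9.26 and 9.17 in NeuT lines, against 7.83, 7.57 and 8.01 in Src lines (1.39 ± 0.21), and the enzymes Pmvk (1.05) and Dhcr7 (0.87) were higher. Of 15 fatty acid synthesis genes 4 were higher and 1 lower (median 0.27), with 2 higher without NeuT replicate 1 or 2 or Src replicate 2. Of 24 glycolysis and hypoxia genes 4 were lower and 2 higher (median -0.13). Egln3 was at 5.01, 5.21 and 5.36 in NeuT lines, against 9.35, 9.14 and 9.45 in Src lines (-4.12 ± 0.18), while Slc16a3, the lactate exporter, differed by -1.10. Of 19 oxidative phosphorylation genes 1 was higher and 2 lower (median 0.01).

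Genes of mitosis were higher in NeuT lines, with 15 of 21 higher, none lower and a median of 0.62. Plk1, a kinase of mitotic entry, was at 9.46, 9.87 and 9.73 in NeuT lines, against 8.44, 8.32 and 8.55 in Src lines (1.25 ± 0.13, adjusted p = 1.08e-05). Cdc20, an activator of the anaphase-promoting complex, was at 9.32, 9.40 and 9.56 in NeuT lines, against 8.36, 8.41 and 8.41 in Src lines (1.03 ± 0.12). These 2 were past 2-fold, and Aurka (0.97), Cenpa (0.92), Ccnb2 (0.90) and Mki67 (0.48) differed by less. Without Src replicate 2, 9 members were higher in place of 15. DNA replication genes had 5 of 24 higher (9 with array weights) and 1 lower (median 0.06), with Orc1 at 0.77 and Mcm4 at -0.51, and 1 of 17 cyclins and CDK inhibitors passed, Ccnd1. Ribosome biogenesis genes had 6 of 25 higher and 2 lower (median 0.28), and the higher count ran between 2 and 15 over the alternatives, with 2 without NeuT replicate 3, 3 without NeuT replicate 2 or Src replicate 1 or 2, and 10 without control replicate 3. Of 15 p53 target genes 5 were higher (8 when only the NeuT and Src arrays were fitted) and 2 lower (median 0.32), with the p53 inhibitor Mdm2 at 1.06 and the death receptor Tnfrsf10b at 1.33 higher and Fas at -2.09 lower.

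The X-linked BEX and ARMCX genes, a family of small adaptor and armadillo-repeat proteins clustered on the X chromosome, had 7 of 13 higher, none lower and a median of 0.78. Besides Bex1, Bex4 was at 7.17, 7.21 and 6.58 in NeuT lines, against 4.64, 4.43 and 4.85 in Src lines (2.35 ± 0.31, adjusted p = 9.97e-05). Armcx3, a protein of the mitochondrial outer membrane, was at 9.90, 9.98 and 9.61 in NeuT lines, against 6.79, 5.96 and 6.14 in Src lines (3.53 ± 0.62), and its 2 other probe sets differed by 3.33 and 2.45. Armcx4 (2.09), Bex2 (1.52) and Armcx1 (1.08) were past 2-fold too. Oncofetal genes had 3 of 8 higher, all past 2-fold (median 0.12), namely the RNA-binding proteins Igf2bp1 (1.69) and Igf2bp3 (1.03) and the chromatin protein Hmga2 (1.07). Neuronal growth genes had 4 of 16 higher and 2 lower (median -0.02). Gap43, a growth cone protein, was at 11.04, 11.14 and 10.92 in NeuT lines, against 8.69, 8.57 and 8.81 in Src lines (2.34 ± 0.18, adjusted p = 5.83e-07), and was between 6.23 and 6.39 in the Myc, Ras and control groups. The neuronal tubulin Tubb3 was lower, at 6.76, 7.10 and 7.09 in NeuT lines, against 8.60, 9.33 and 9.01 in Src lines.

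Markers of other cell types were read over their whole lists. Neuroendocrine markers had 2 of 10 lower and none higher, and 7 of the 10 lay below 6.47 in both groups. The 2 were Ncam1 (-0.51), at 5.99 in NeuT lines and 6.50 in Src lines, and Grp (-0.48), at 5.40 and 5.88. The summed level of the list (log2 of the sum) ran between 9.13 and 9.16 in NeuT arrays and between 9.29 and 9.34 in Src arrays. Fibroblast sums ran between 9.88 and 9.92 in NeuT arrays and between 9.97 and 10.05 in Src arrays. Leukocyte markers had 1 of 13 lower, Coro1a (-0.41), at 5.64 in NeuT lines and 6.05 in Src lines. Of the 13, 11 lay below 6.47 in both groups. Their sums ran between 9.45 and 9.65 in NeuT arrays and between 9.43 and 9.55 in Src arrays. Smooth muscle markers had 1 of 13 higher, Smtn (1.16), and 2 lower, Acta2 and Myocd (-0.23). Myocd was at 4.87 in NeuT lines and 5.10 in Src lines, and its call was lost without any 1 of 5 of the 6 arrays compared. Acta2, the actin of smooth muscle and of myofibroblasts, was at 6.27, 6.13 and 6.47 in NeuT lines, against 8.62, 8.70 and 8.48 in Src lines (-2.31 ± 0.26, adjusted p = 2.3e-05), while Myh11, the defining myosin of the type, was at 6.11 in NeuT lines and 6.13 in Src lines. Smooth muscle sums overlapped, between 11.94 and 12.01 in NeuT arrays and between 11.88 and 11.95 in Src arrays. The part of these markers in the differences above was not tested. In gene order Acta2 is followed by Fas, Ch25h and Lipa, and all 4 were called lower.

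Many genes higher in NeuT lines were neighbours on chromosome 4. This was seen by taking the median difference over 41 neighbouring genes at a time along each chromosome, among the 10548 placed genes with a NeuT or Src mean of at least 6.47, where the median of all genes was 0.05. The stretch was found by looking, so its values are a description with no test. In 1 stretch of 94 genes, between Trmo and Focad, the median difference was 0.95, 81 of the 94 differences were positive, and 45 genes were called higher (47.9% of the stretch) and none lower. These 45 were 11.4% of all genes called higher, and the highest window reached 1.17, while the 99th percentile over all windows was 0.58. Zfp37, a zinc finger protein, was at 9.38, 9.78 and 9.36 in NeuT lines, against 6.76, 6.50 and 6.69 in Src lines (2.86 ± 0.13). Bspry differed by 2.95, the receptor Lpar1 for lysophosphatidic acid by 2.31, Alad of heme synthesis by 2.19, the lipid droplet protein Plin2 by 1.61 and the matrix protein Tnc by 1.13. Each of these genes had its highest mean in NeuT lines, though some came near it in another group. Zfp37 averaged 8.43 and Bspry 8.06 in Myc lines, against 9.51 and 8.87 in NeuT lines. Lpar1 averaged 8.33 in Ras lines, against 8.88 in NeuT lines.

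Relative to each gene's mean over the 15 arrays, the median of the 94 genes ran between 0.65 and 0.77 in NeuT arrays and between -0.27 and -0.26 in Src arrays. It ran between -0.20 and -0.09 in Myc arrays, between -0.34 and -0.12 in Ras arrays and between -0.03 and 0.02 in controls. The NeuT lines were thus the group apart, and the NeuT mean was the highest of the 5 groups for 70 of the 94 genes (74.5%), beside 23.2% of all 10548. All 3 NeuT lines shared the shift. A second stretch of chromosome 4, 36 genes between Nudt2 and Tomm5 and including Tln1, had a median of 0.57 with 6 called higher, and one more of 9 genes had 0.54. On chromosome 16 the difference was spread over the chromosome, with a median of -0.24 over 340 genes, 22.6% of them positive and 24 called lower. There the array medians ran between -0.10 and -0.08 in NeuT arrays, between 0.15 and 0.20 in Src arrays and between -0.07 and 0.03 in the other 9, so the Src lines were the group apart. Smaller shifts over a whole chromosome were seen on chromosome 3 (median 0.20, 69.8% positive) and chromosome 10 (median 0.16, 68.3% positive), beside chromosome 4 as a whole (median 0.21, 70.2% positive). Chromosome 7 (median 0.14, 65.9% positive) and chromosome 15 (0.11, 64.5%) came close behind, and chromosome 19 went the other way (-0.09, 35.1%). The rest ran between 44.0% positive (chromosome 18) and 63.0% (chromosome 5). On chromosome 3 the array medians ran between -0.01 and 0.09 in NeuT arrays and between -0.19 and -0.14 in Src arrays, and the Src arrays lay below all others. On chromosome 10 they ran between 0.14 and 0.23 in NeuT arrays, above all other arrays, and between 0.01 and 0.03 in Src arrays. No measurement of DNA was used here.

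**Figure D5:**
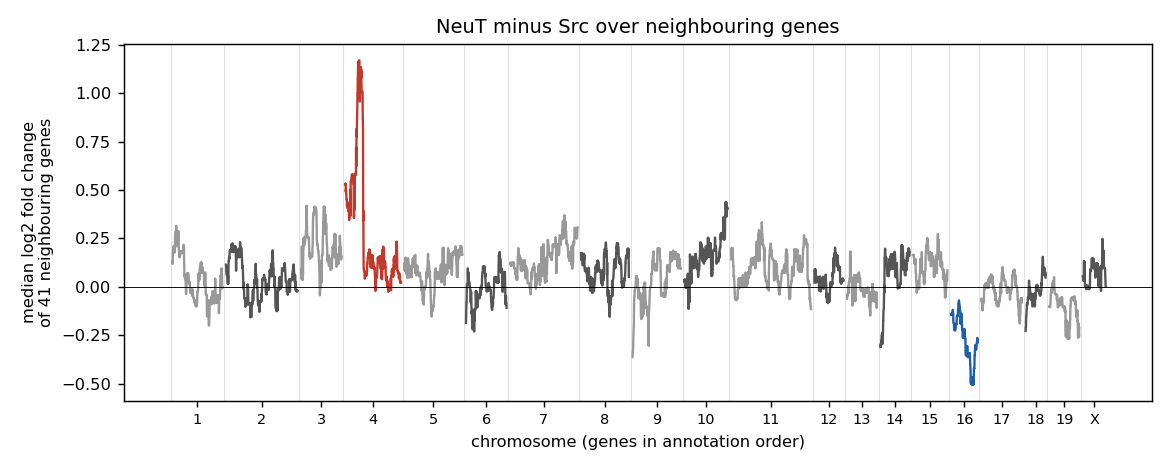
Median log2 fold change, NeuT minus Src, over 41 neighbouring genes (vertical axis) along the chromosomes in gene order (horizontal axis), with chromosome 4 in red, chromosome 16 in blue and the others in grey. Windows on chromosome 4 rise to 1.17, and all windows on chromosome 16 lie below 0, down to -0.50.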

How the data were processed

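RNA amplified with the WT-Ovation Pico system was measured on 15 biotin-labelled arrays, per the labels' protocols. The deposited values are log2 expression, normalized by the authors before deposit, and the submitters' processing notes name RMA and Affymetrix Expression Console 1.1. Neither the background settings nor the genome build is stated in the sources used.

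Of 35556 probe sets, 21789 had 1 gene, and the one with the highest mean was taken for each of 19938 genes. Group means of all 15 arrays were fitted with limma 3.58.1 in R 4.3.3 (lmFit, eBayes) and NeuT was set against Src, with Benjamini-Hochberg adjustment over all genes. A call needed an adjusted p under 0.05 and a change of 2-fold or more, and the fit was tested on simulated data. Errors of differences are SE, those of levels SD.

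Members and the 41 lists were chosen with earlier results of these data known. Named genes were the transduced ones, the 12 highest and 12 lowest differences among genes past the test with no overlap and a group mean of at least 6.47 (predicted genes passed over), and up to 4 per list by smallest p, or up to 2 where none passed. Other listed genes, chromosome 4 genes and variable genes were named after their values were seen. Promoters are from RefSeq (GRCm38.p6), as is the gene order. Figures used Python 3.11.15, pandas 2.3.3 and matplotlib 3.10.9. Alternatives covered normalization, dim genes, probe sets, variance model, array weights, samples fitted, the replicate block, each NeuT and Src array left out, and the fold minimum.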

Additional observations from a re-analysis of the deposited data

How the results depend on the processing

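The number of called genes ran between 669 and 760 over normalizations, filters, probe set rules, variance models, weights and sets of arrays, against 709, with 655 to 709 of these genes among them. Leaving out each NeuT or Src array gave 692 to 724 genes, 379 to 401 higher and 299 to 332 lower. With no fold minimum 4019 genes passed, 2433 higher and 1586 lower, and at 4-fold 184 did, 82 higher and 102 lower. The replicate block gave 707 genes over 15 arrays and 722 over the 6 NeuT and Src arrays. Same-numbered arrays correlated in their deviations with r between 0.0033 and 0.10, so the numbers were not taken as pairs. Erbb2 differed by 1.40 to 1.78 with an array left out and passed in all fits. Single genes were followed for 145 results, the named genes with an adjusted p under 0.05 and Src and Myc. Only Src and Myc could thus gain the call, and the other named genes that did not pass were left out. Of 2603 values of these genes over 18 alternatives, 2555 kept their direction and side of the threshold, 44 lost and 4 gained the call, and 0 turned round. The gains were all Myc, and the losses were in Csk, Cycs, Me1, Myocd, Ptpn1, Tap2, Tapbp and Uqcrc1. Of 1476 list counts 209 moved by over 1.5 times, several of them given above beside their lists. The cause was not tested. With 3 lines a group the precision is limited, and levels near background are unsure.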

Other observations

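Probe sets outside the gene comparison also separated the lines. In a fit over all probe sets, 142 of the 12146 without an assigned gene were called higher in NeuT lines and 78 lower, and of the 1621 assigned to several genes 13 were higher and 23 lower. They are unnamed here.

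A few genes differed widely among the NeuT lines. In NeuT lines 38 genes ranged over at least 2-fold, and in Src lines 19. Cplx4, a complexin of synaptic vesicle release, was at 4.58, 8.68 and 4.80 in the 3 NeuT lines, against 4.46, 4.74 and 4.58 in Src lines, so that only NeuT replicate 2 was high and the groups overlap. Fgf7, a growth factor that acts on epithelium, was at 8.40, 6.25 and 7.33 in NeuT lines, against 5.71, 5.56 and 5.64 in Src lines. Lepr, the leptin receptor, was at 7.68, 6.07 and 7.47 in NeuT lines, against 4.57, 4.60 and 4.38 in Src lines. For both, NeuT replicate 2 was the lowest NeuT line and still above all Src lines.

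Outside the family clusters given above, runs of neighbouring lower genes were Ces2e, Ces2f and Ces2g, carboxylesterases, lower by 1.57 to 3.17 on the log2 scale, Ifi203, Ifi202b and Ifi205, interferon-activated genes, lower by 1.17 to 2.03, Gbe1, Robo1 and Robo2 on chromosome 16, lower by 1.37 to 2.42, and Etfbkmt, Amn1 and Resf1, lower by 1.02 to 1.40. All 3 runs of at least 3 higher genes lay on chromosome 4, against 8 runs of lower genes, none of them there.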
